A study of Homo sapiens with 16 samples.

Results

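SK-N-AS is an established human neuroblastoma cell line, and the cells described here are those of its RNA counts table that carried counts of GATA2 or GATA3 and none of the insulin row. They were chosen by their own counts. A cell had to hold at least 1500 counts in all and 0 counts in the joint INS-IGF2 and INS row, which left 325 of 603 cells. Of these, 66 cells (20.3%) had GATA2 and GATA3 counts that summed to 2 or more and are called GATA positive. They were compared with the 164 cells at 0 for both genes, called GATA negative. The remaining 95 cells had a sum of 1 and lay just outside both groups.

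All cells came from untreated SK-N-AS cultures, and the labels describe 16 samples of the line, with cells sorted singly into wells for MARS-seq, a method that counts the 3' ends of transcripts in barcoded wells. The columns of the table are named by barcode and show no sample, so every value below describes 1 pool of cells with no replicates. A difference between the groups therefore has no replicate check and no p-value. A population kept as a culture line carries no stroma, immune cells or normal adrenal cells, which limits it as a model of a tumour.

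GATA2 and GATA3 are zinc finger transcription factors that bind the core sequence GATA. In the developing sympathetic nervous system they act with HAND2 and TBX2 in the circuit that maintains noradrenergic identity and the enzymes of catecholamine synthesis. In neuroblastoma the same factors mark the adrenergic state, which is set against a mesenchymal state marked by factors such as TWIST1 and FOSL1, and SK-N-AS is usually placed near the mesenchymal end. In other tissues GATA2 serves blood progenitors and mast cells, and GATA3 serves T cells and luminal epithelium.

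Depth differed between the groups before any gene was compared. GATA positive cells had a median total of 3378 counts (1539 to 42404), GATA negative cells 2354 (1507 to 6984) and cells with a sum of 1 had 2378. The deepest cell of the whole table, with 42404 counts, was GATA positive with 4 GATA2 and 3 GATA3 counts. It held 14.7% of all counts in the GATA positive group, and the next deepest GATA positive cell held 13400 counts. Values are therefore also given without the deepest cell where it moves them. Thinned to an equal 1500 counts, cells of both groups had similar numbers of genes with a count, with medians of 942 and 922. The barcodes fall into 2 sets that share 239 of 364 distinct barcodes, with 40 GATA positive cells in set 1 and 26 in set 2.

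GATA2 contributed 105 counts and GATA3 87 counts in the GATA positive cells. GATA2 stood at 364 CPM (297 to 440) and GATA3 at 301 CPM (241 to 372), where CPM scales counts to the same library total in every group and the range is an exact Poisson interval at 95%. These levels follow from the way the cells were chosen and are a description. All intervals in the text cover counting error only. Both genes had a count in 33 of the 66 cells, GATA2 alone in 20 and GATA3 alone in 13. Most sat at the lower limit, with 37 cells (56.1%) at a sum of exactly 2 and 29 at 3 or more, up to 7.

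Across all 325 cells the 2 genes together stood at 291.8 CPM, so a cell of the median GATA negative depth would carry 0.687 counts on average if all cells were alike. With every cell at that pooled level, counting alone would leave 148.2 cells at 0 and give 68.1 cells with 2 or more. The table has 164 and 66. A GATA negative cell is thus a cell in which neither transcript was counted, not a cell shown to lack them.

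**Figure D1:**
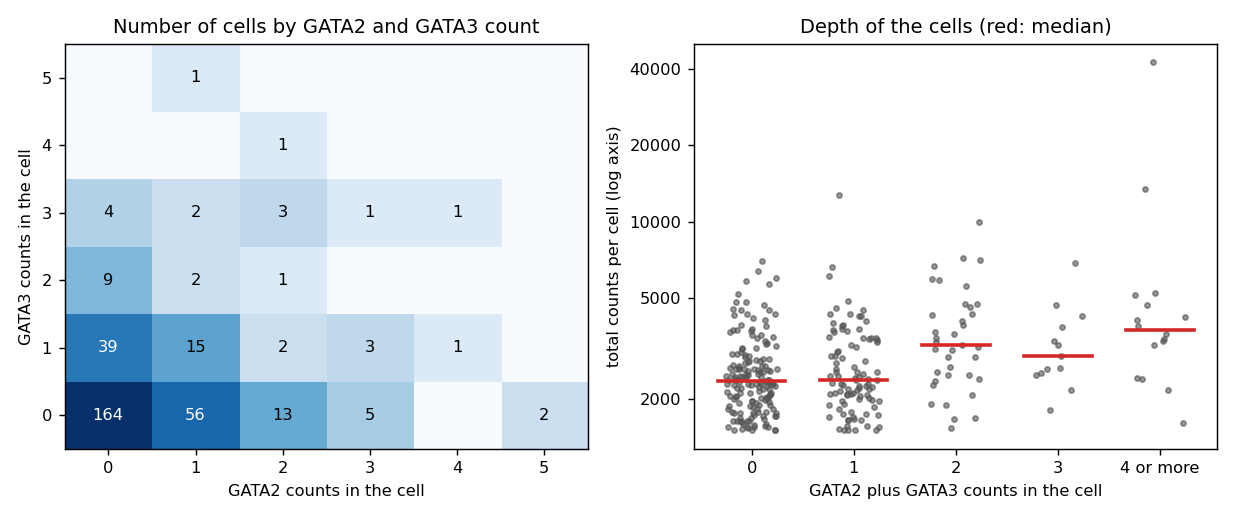
The left panel gives the number of cells at each pair of GATA2 count (horizontal axis) and GATA3 count (vertical axis), and the right panel gives the total counts of each cell on a log axis by the sum of both genes, with a red line at the median. The 164 cells at 0 and 0 are the GATA negative group, and the 1 cell at 42404 counts stands far above all the others.

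The link between the 2 GATA genes themselves was read at equal depth, with every cell thinned to 1500 counts. Cells with a GATA2 count had GATA3 at 183 CPM (112 to 282), and cells without one had 109 CPM (77.8 to 147). The log2 ratio was 0.75, with an interval from -0.10 to 1.56 that includes 0. In the reverse reading GATA2 stood at 209 CPM in cells with a GATA3 count and 185 CPM in cells without, a log2 ratio of 0.18 (-0.70 to 0.97). Neither gene was thus distinguishable between cells with and without the other at this depth.

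HAND2 is a basic helix-loop-helix factor of the sympathetic lineage and has 2 matches to a GATA motif in the bases before its start. Its upstream sequence is shown because it is the proposed companion of GATA2 and GATA3 in these cells. The stretch is RefSeq's, from GRCh38.p14, chr4:173530230-173530479 on the minus strand, printed 5′ to 3′ and ending at the base before the start. Capitals mark matches to the hexamers AGATAA, its variant TGATAA, its variant AGATAG and the further variant TGATAG on either strand, which begin 222 and 172 bases before the start.
HAND2: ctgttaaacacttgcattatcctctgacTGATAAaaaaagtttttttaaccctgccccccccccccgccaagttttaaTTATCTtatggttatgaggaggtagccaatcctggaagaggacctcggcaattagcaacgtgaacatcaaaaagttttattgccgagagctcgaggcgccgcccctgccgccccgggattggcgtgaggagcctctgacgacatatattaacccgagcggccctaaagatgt
Such a match occurs in 22.3% of the 35116 RefSeq upstream stretches of this length, and it is a match of letters, not a measured site. These letters are not in the window of GATA2, GATA3, MSX1 or CHRNA3. Of the 15 rows at the upper end and the 15 at the lower end of the ratios described further on, 11 and 14 have a stretch in the reference, and 0 of either hold the motif. Counted by gene, with a match in any of its stretches, the share over all 27305 genes is 26.2%.

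HAND2 and TBX2, the 2 companion factors that were proposed to mark the GATA positive cells, did not differ between the groups beyond counting error. HAND2 had 85 counts in the GATA positive and 106 in the GATA negative cells, or 295 CPM (235 to 364) against 247 CPM (202 to 299). The log2 ratio of GATA positive over GATA negative cells was 0.25, with an exact conditional interval from -0.17 to 0.68. At 1500 counts, HAND2 was counted in 34.8% of GATA positive cells (23.5 to 47.6, Clopper-Pearson) and 28.0% of GATA negative cells (21.3 to 35.6), with a median of 0 and a highest value of 3 in each group. TBX2, a T-box repressor, had 132 against 178 counts, or 457 CPM (383 to 542) against 415 CPM (356 to 480), a log2 ratio of 0.14 (-0.19 to 0.47). Both genes were thus counted in both groups, and the label by all 4 genes was not borne out for HAND2 and TBX2. GATA2 and GATA3 differ because the cells were chosen on their counts, so they give the label no support.

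Read along the GATA sum, HAND2 stood at 247 CPM at 0, 230 at 1, 250 at 2 and 336 CPM (249 to 443) at 3 or more. Its level was flat up to a sum of 2, and the interval of the last class still overlaps that of the first. TBX2 ran at 415, 456, 444 and 470 CPM over the same classes, all within each other's intervals. The groups were also redrawn from thinned counts, which left 29 GATA positive and 214 GATA negative cells. These 214 included 18 cells of the original GATA positive group, the deepest cell among them. With the redrawn groups the HAND2 log2 ratio was 0.50 and the TBX2 ratio -0.30. The sign of the TBX2 ratio therefore depends on how the cells were chosen.

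The remaining sympathetic factors followed the same pattern. The list holds 29 members, of which 7 were at 0 in both groups and 4 had at least 50 counts. Summed over the list, the log2 ratio was 0.09 (-0.10 to 0.29). The median of the 4 well counted members was -0.14, beside 0.01 over all rows with at least 50 counts. TBX3, a T-box factor related to TBX2, had 21 against 44 counts, or 72.8 against 102 CPM, a log2 ratio of -0.49 (-1.32 to 0.29). TLX2, a homeobox factor of neural crest derivatives, had 20 against 40 counts, a ratio of -0.43 (-1.28 to 0.38). No member of the list with at least 50 counts passed 1.5-fold in either direction. Of all such rows 5.56% were higher and 4.83% lower by that much, so 0 of 4 does not set the list apart.

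Partners of GATA factors showed no difference beyond counting error either. GATA4, another member of the family, had 23 counts in each group, or 79.7 CPM (50.5 to 120) against 53.6 CPM (34.0 to 80.4). The E proteins TCF3 and TCF4, dimer partners of factors such as HAND2 and TWIST1, had log2 ratios of 0.03 (-0.75 to 0.78) and 0.37 (-0.43 to 1.17). Over the 22 listed members the summed ratio was 0.04 (-0.30 to 0.38). Mesenchymal transcription factors, the opposing group in neuroblastoma, gave a summed ratio of -0.07 (-0.26 to 0.13). FOSL1, an AP-1 subunit, stood at 256 CPM in both groups with a ratio of 0.00 (-0.44 to 0.44), and TWIST1 gave 0.09 (-0.55 to 0.72). TEAD1, a DNA-binding partner of YAP, was at 142 against 205 CPM, a ratio of -0.53 (-1.10 to 0.02). No difference in the mesenchymal factors as a group was thus detectable at this depth.

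Over the whole table the 2 groups were close. Of 2627 rows with at least 50 counts in the 2 groups together, GATA2 and GATA3 left out, 146 (5.56%) were at least 1.5-fold higher in the GATA positive cells and 127 (4.83%) were at least 1.5-fold lower. Without the deepest cell, 121 of 2488 rows (4.86%) were higher and 145 (5.83%) lower. These numbers carry no test, since the cells are not replicates, and rows with few counts pass the limit most easily. Among the 616 rows with at least 200 counts, 4 were higher and 10 lower. The middle 90% of log2 ratios ran from -0.58 to 0.61.

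Among the genes named here, a large difference was that of CHRNA3, the alpha 3 subunit of the nicotinic acetylcholine receptor of autonomic ganglia. It had 23 counts in the GATA positive and 4 in the GATA negative cells, or 79.7 CPM (50.5 to 120) against 9.32 CPM (2.54 to 23.9). The log2 ratio was 3.10 (1.55 to 5.09), and 3.32 (1.78 to 5.32) without the deepest cell. Along the GATA sum it stood at 9.32, 18.9, 57.2 and 101 CPM, higher in each class than in the class before, although neighbouring intervals overlap. The counts were concentrated, with 66.7% of them in 5 cells, and the ratio was 4.92 in barcode set 1 and 1.11 in set 2. CHRNA3 lies below the 50-count minimum, so it is not among the rows counted above, and it also belongs to the genes of the insulin-row cells that the choice of cells removed. How far cells related to those remained among the GATA positive cells was not tested directly. In the list of peptide hormone genes, counts other than CHRNA3 were 18 against 16, a log2 ratio of 0.74 (-0.31 to 1.81). Leaving out cells with a GCG or CHGA count kept 57 GATA positive and 154 GATA negative cells. Of 159 results, 156 then stayed within their counting interval and 3 left it.

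The other genes on the list of neural crest receptors were also higher as a sum. The list of 28 genes had 188 against 194 counts, a log2 ratio of 0.53 (0.23 to 0.82), which fell to 0.37 (0.06 to 0.68) without CHRNA3. RET, the receptor tyrosine kinase for GDNF ligands, had 12 against 8 counts, a ratio of 1.16 (-0.25 to 2.65), and was named after its values were seen. Without CHRNA3 and RET the summed ratio was 0.32 (0.003 to 0.64), an interval only just clear of 0. IGF1R, the receptor of insulin-like growth factor, had 21 against 15 counts, or 72.8 against 34.9 CPM, a ratio of 1.06 (0.03 to 2.12). FGFR1, a fibroblast growth factor receptor and the best counted member, had 61 against 74 counts and a ratio of 0.29 (-0.22 to 0.80). IGF2R of the same list went the other way, with 9 against 22 counts and a ratio of -0.72 (-2.02 to 0.46). A count was recorded for 16 of the 28 genes, and over the 20 alternative choices of cells and scaling the summed ratio ran from 0.33 to 0.73.

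Genes of catecholamine synthesis and secretory vesicles were slightly higher in the GATA positive cells, by an amount that depended on how the cells were chosen. The 32 listed genes summed to 2425 against 2033 CPM, a log2 ratio of 0.25 (0.11 to 0.40), and 0.18 (0.02 to 0.33) without the deepest cell. SCG2, secretogranin II of dense-core vesicles and the best counted member, was at 859 CPM (756 to 973) against 687 CPM (611 to 770), a ratio of 0.32 (0.07 to 0.57). By GATA sum SCG2 stood at 687, 698, 823 and 893 CPM. Without SCG2 the list gave 0.22 (0.04 to 0.40), and without both SCG2 and the deepest cell 0.11 (-0.08 to 0.31). The summed ratio was 0.41 in cells with a GATA sum of 3 or more. It was 0.045 in the 76 cells with any GATA2 count and no GATA3. In the 52 cells with any GATA3 count and no GATA2 it was 0.019. Of those 76 and 52 cells, 56 and 39 had a sum of 1 and lay outside the GATA positive group. Of 6 members with at least 50 counts, 5 had a ratio above 0 and 0 passed 1.5-fold. Over all such rows the median ratio was 0.01, with 5.56% higher and 4.83% lower by 1.5-fold. With 6 members these counts do not set the list apart from all rows.

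Within this list the members differed. NPY, a neuropeptide of sympathetic neurons, had 18 against 10 counts, a ratio of 1.42 (0.23 to 2.70), with 71.4% of its counts in 5 cells. Its ratio was -0.80 in the 52 cells with GATA3 counts and no GATA2, of which 39 had a sum of 1. DDC, the decarboxylase of the pathway, had 22 against 21 counts and a ratio of 0.64 (-0.29 to 1.57). NPY and DDC were named after their values were seen. VGF, a granin-like secreted protein, was at 547 against 559 CPM, a ratio of -0.03 (-0.33 to 0.27), and was at -0.48 (-0.83 to -0.13) without the deepest cell. That 1 cell held 59 of the 158 VGF counts of the GATA positive cells, and a difference in VGF was seen only without it.

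MSX1, a homeobox factor that is a target of BMP signalling, was higher in the GATA positive cells. It had 29 against 15 counts, or 100.5 CPM (67.3 to 144) against 34.9 CPM (19.6 to 57.6), a ratio of 1.52 (0.58 to 2.53). Along the GATA sum its level was 34.9, 60.4, 85.8 and 114 CPM. Like CHRNA3 it has fewer than 50 counts. The BMP and SMAD list as a whole gave 0.17 (0.03 to 0.32), and 0.14 (-0.01 to 0.28) without MSX1. Without both MSX1 and the deepest cell it gave 0.18 (0.02 to 0.33). ID1, ID2 and ID3, the inhibitors of differentiation that respond to BMP, had ratios of 0.14 (-0.10 to 0.39), 0.10 (-0.41 to 0.60) and 0.12 (-0.12 to 0.35), none clear of 0.

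**Figure D2:**
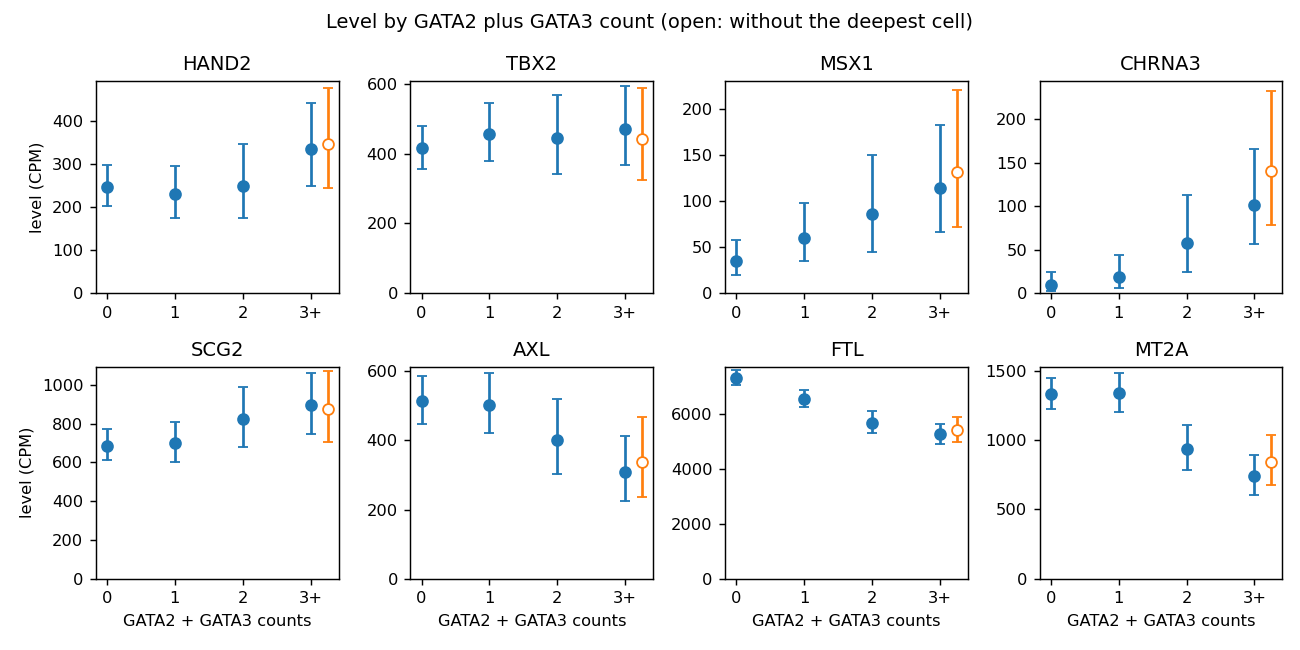
Level in CPM (vertical axes, from 0) of 8 genes in cells with a GATA2 plus GATA3 count of 0, 1, 2 and 3 or more (horizontal axes), with exact Poisson intervals at 95%, and in orange the last class without the deepest cell. CHRNA3 and MSX1 are higher in each class than in the one before, FTL is lower in each, and HAND2 and TBX2 stay within overlapping intervals.

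Other genes differed in the opposite direction. FTL, the light chain of the iron store ferritin, had 1575 counts in the GATA positive and 3141 in the GATA negative cells, or 5456 CPM (5190 to 5732) against 7316 CPM (7063 to 7577). Its log2 ratio was -0.42 (-0.51 to -0.34). At 1500 counts per cell the GATA positive cells had a median of 6 FTL counts (0 to 35) and the GATA negative cells 8 (0 to 92), so single cells of the groups overlapped widely. By GATA sum FTL stood at 7316, 6548, 5679 and 5246 CPM, lower in each class than in the one before. MT2A, a metallothionein that binds zinc and copper, had 241 against 573 counts, or 835 CPM (733 to 947) against 1335 CPM (1228 to 1449), a ratio of -0.68 (-0.90 to -0.46). It stood at 1335, 1339, 937 and 739 CPM by GATA sum, equal at 0 and 1 and lower from 2 on. Both genes were lower in the GATA positive cells under each of the 20 alternatives, from -0.78 to -0.06 for FTL and from -0.94 to -0.09 for MT2A. Both were picked as rows at the lower end of 2627 rows. The alternatives reuse cells in which they were picked, so the shared sign is no independent check.

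AXL, a receptor tyrosine kinase linked to the mesenchymal state, was also lower. It had 102 against 220 counts, or 353 CPM (288 to 429) against 512 CPM (447 to 585), a ratio of -0.54 (-0.89 to -0.19), and 512, 502, 401 and 309 CPM by GATA sum. AXL was named after its values were seen. S100A6, a calcium-binding protein, was lower by a smaller step, at 5248 against 6259 CPM and a ratio of -0.25 (-0.35 to -0.16). VIM, the intermediate filament vimentin, stood at 5861 against 5665 CPM, a ratio of 0.05 (-0.04 to 0.14). The 40 matrix and epithelial-mesenchymal transition genes summed to a ratio of -0.07 (-0.11 to -0.03). Of 21 well counted members, 12 had a ratio above 0, and their median was 0.07, beside 0.01 over all such rows. The members higher by 1.5-fold included LUM at 1.03 and the collagen gene COL6A2 at 0.63 (0.16 to 1.09). In number 2 were higher and 0 lower by 1.5-fold, beside 5.56% and 4.83% of all such rows. Counts this small do not set the list apart from all rows.

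The rows at the upper end of the ratios were of mixed function. They were taken as the 15 rows with the highest lower bound, so they are extremes of 2627 rows and their intervals make no allowance for that choice. HIST1H2BK, a histone H2B gene, had 60 against 34 counts, or 208 CPM (159 to 267) against 79.2 CPM (54.8 to 111), a ratio of 1.39 (0.76 to 2.04), with 41.5% of its counts in 5 cells. SMARCD1, a subunit of the SWI/SNF chromatin remodelling complex, had 49 against 33 counts and a ratio of 1.14 (0.48 to 1.83). LUM, the matrix proteoglycan lumican, stood at 166 against 81.5 CPM, a ratio of 1.03 (0.37 to 1.70). At 1500 counts per cell, however, LUM was counted in similar shares, 10.6% of GATA positive and 10.4% of GATA negative cells. Cells with a GATA sum of 1 had LUM at 181 CPM, as high as the GATA positive cells. KPNA2, an importin alpha that carries cargo into the nucleus, was at 267 against 147 CPM, a ratio of 0.86 (0.36 to 1.37).

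Further rows of the upper 15 were LAMA5 (a laminin chain) at 1.40, TMEM141 at 1.21, SUGT1 (a co-chaperone) at 1.14, SRSF11 (a splicing factor) at 1.00, FHOD1 (a formin) at 0.99, STMN3 (a stathmin) at 0.98, AUP1 at 0.76 and QSOX1 (a sulfhydryl oxidase) at 0.59. A row that carries only a sequence identifier and no gene symbol was at 1.42. The ratio of LAMA5 was 0.72 (-0.33 to 1.76) without the deepest cell. RPS15A and RPS24, ribosomal protein genes at 0.73 and 0.72, drew 22.6% and 45.0% of their GATA positive counts from the second deepest cell alone, which had 36 and 54 counts of them. All 15 had a ratio above 0 in each barcode set and within runs of 25 neighbouring columns, but 11 passed 1.5-fold in set 1 and 12 within runs. The sets and runs are parts of the pool in which the rows were picked, so a shared sign is no independent check. RPS24 was at 0.05 in set 1, and 10 of 15 were higher when the groups were redrawn from thinned counts.

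At the lower end, PTTG1 (securin, which holds back sister chromatid separation) had 31 against 114 counts, or 107 CPM (73.0 to 152) against 265 CPM (219 to 319), a ratio of -1.31 (-1.93 to -0.72). CSE1L, the export factor of importin alpha, had 10 against 46 counts and a ratio of -1.63 (-2.78 to -0.62). EZR, ezrin, which links the membrane to actin, had 25 against 83 counts and a ratio of -1.16 (-1.87 to -0.50). PPP2R5D, a regulatory subunit of phosphatase PP2A, gave -1.58 (-2.68 to -0.62). MALAT1, a nuclear long noncoding RNA, gave -0.95 (-1.41 to -0.51) in the pool but -2.74 in barcode set 1 and 0.22 in set 2, so its direction differs between the sets.

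Other rows of the lower 15 were BTBD6 at -1.26, AKR1A1 (an aldehyde reductase) at -1.16, PNKD at -1.01, NPM1 (nucleophosmin) at -0.98, NCBP2 (of the nuclear cap-binding complex) at -0.74, RPL26 at -0.72, CALM2 (calmodulin) at -0.71 and RPS29 at -0.70. Of the 15, FTL and MT2A included, 15 were lower in set 1 and 14 in set 2, and 14 were lower with groups from thinned counts. As for the upper rows, these readings reuse the cells in which the rows were picked and are no independent check. Ferritin, ribosomal protein, histone and nucleophosmin genes have near-identical copies in the genome, and no source used here says how reads matching several copies were counted, so their rows are uncertain in that respect.

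Position in the table moved with some of these rows. RPS29 ran from 35.0 to 1776 CPM over the runs of 25 columns, and CALM2, RPL26 and PTTG1 also differed between runs. The 6 full runs with RPS29 at 1000 CPM or more held 12 GATA positive among 57 cells of the 2 groups (21.1%), and the other 18 full runs 53 among 172 (30.8%). Within runs the ratios were -0.36 for RPS29 and -0.76 for PTTG1, smaller in size than in the pool, while FTL gave -0.41 and MT2A -0.62. Among the rows named at the upper end, RPS24 moved from 0.72 to 0.05, QSOX1 from 0.59 to 0.17 and RPS15A from 0.73 to 0.37. Of 159 results recomputed within runs, 151 stayed within their counting interval and 8 left it. What the runs stand for is not given in the labels.

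**Figure D3:**
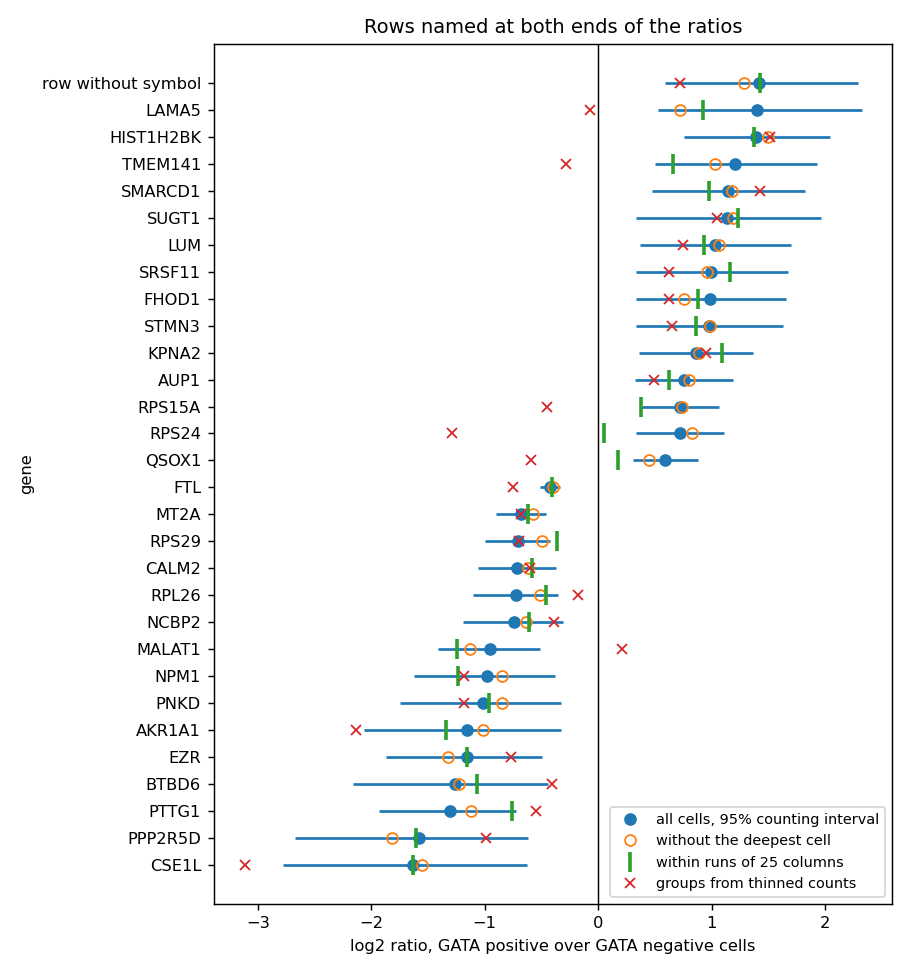
Log2 ratio (horizontal axis, GATA positive over GATA negative cells) of the 15 highest and 15 lowest rows (vertical axis), with 95% counting intervals in blue, and the same ratio without the deepest cell, within runs of 25 columns and with groups redrawn from thinned counts. FTL and MT2A, at -0.42 and -0.68 in the pool, stay below 0 in every setting drawn, and RPS24, RPS15A, QSOX1, TMEM141, LAMA5 and MALAT1 cross 0 with redrawn groups. All settings reuse cells of the pool in which the rows were picked.

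Cell cycle genes gave mixed values. G2/M genes, which act at the entry into mitosis, summed to a ratio of 0.12 (0.03 to 0.20) over 40 members, and G1/S genes to 0.08 (-0.03 to 0.19). UBE2C, a ubiquitin-conjugating enzyme of the anaphase-promoting complex, was at 395 against 282 CPM, a ratio of 0.49 (0.10 to 0.87), and HMGB2, a chromatin protein, at 0.20 (0.02 to 0.38). PTTG1, a member of the same list, stood far on the other side. In barcode set 1 the summed G2/M ratio was -0.05 and in set 2 it was 0.27, so the direction of this list differed between the sets. Histone genes gave -0.10 (-0.18 to -0.02), which moved to -0.01 (-0.09 to 0.07) without the deepest cell, and HIST1H4C, the best counted of them, moved from -0.29 to -0.11.

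Stress response genes were lower in sum, at -0.15 (-0.26 to -0.05), and at -0.20 (-0.32 to -0.09) without the deepest cell. The endoplasmic reticulum chaperones HSP90B1 and PDIA4 gave -0.47 (-0.80 to -0.13) and -0.34 (-0.60 to -0.07), while CALR, a calcium-binding chaperone of the same compartment, gave 0.00 (-0.17 to 0.16). In barcode set 1 the summed ratio was -0.35 and in set 2 it was 0.06. CDKN1A, the p21 cell cycle inhibitor, had 26 against 67 counts and a ratio of -0.79 (-1.51 to -0.12), in a p53 target list that summed to 0.02 (-0.27 to 0.30).

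Of 34 gene lists, 27 had a member with at least 50 counts. Of these 27, 6 summed ratios had an interval above 0 and 6 below it, and 4 and 5 without the deepest cell. The largest in size was the 0.53 of the neural crest receptors. Ribosomal protein genes gave -0.08 (-0.09 to -0.06), respiratory chain genes -0.05 (-0.09 to -0.01), actin and tubulin genes -0.09 (-0.13 to -0.06), glycolysis and hypoxia genes -0.04 (-0.09 to 0.02) and cholesterol synthesis genes -0.02 (-0.19 to 0.15). Neuronal cytoskeleton genes gave 0.10 (-0.02 to 0.22), with UCHL1, a neuronal deubiquitinase, at 0.02 (-0.16 to 0.21). Interferon and MHC class I genes gave 0.12 (0.00 to 0.23), a value that changed sign in several settings.

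**Figure D4:**
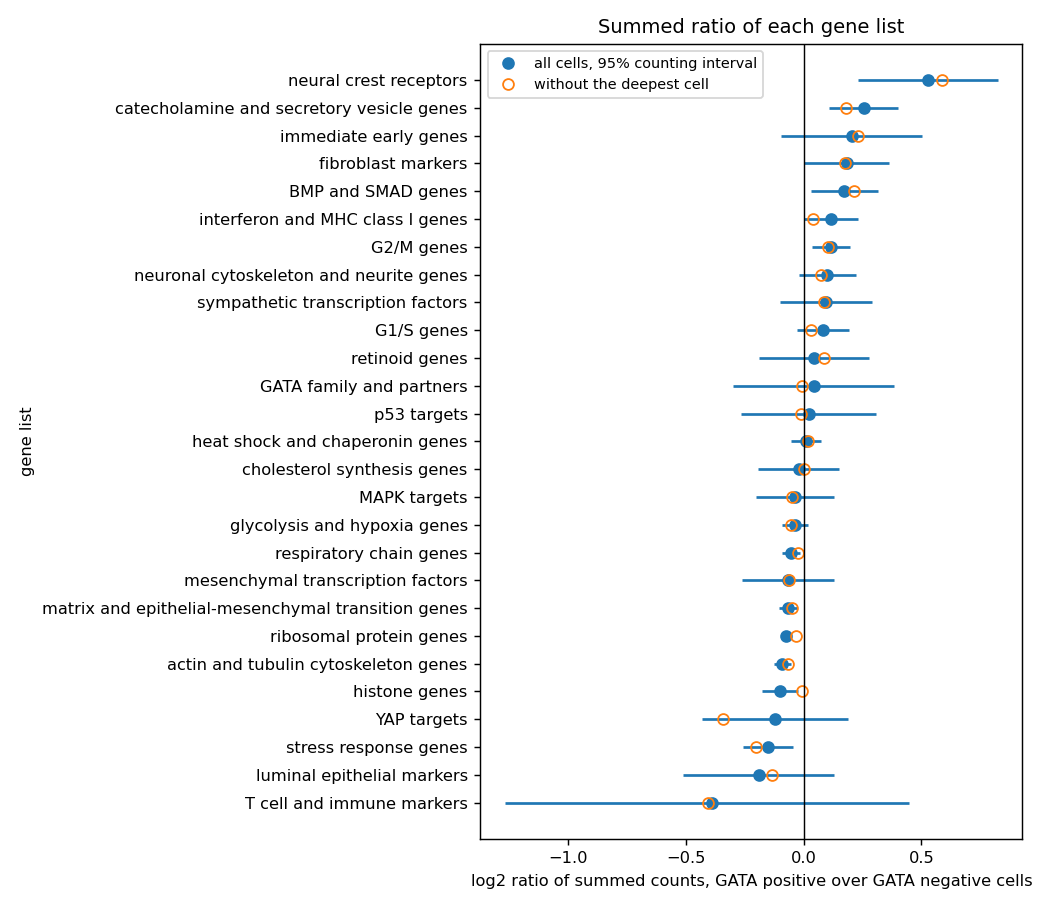
Log2 ratio of summed counts (horizontal axis, GATA positive over GATA negative cells) for the 27 gene lists with at least 1 member of 50 counts (vertical axis), with 95% counting intervals in blue and the value without the deepest cell in orange. The neural crest receptors lie highest at 0.53, and the sympathetic and mesenchymal transcription factors lie near 0 with intervals that include it.

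Markers of other cell types that use GATA2 or GATA3 were looked at over their whole lists. All 13 erythroid and mast cell markers were at 0 in both groups, where 3 counts would be 10.4 CPM in the GATA positive and 6.99 CPM in the GATA negative cells. Of 13 T cell and immune markers 10 were at 0, and the sums were 19 against 37 counts, with 18 and 32 of these from CD68. Trophoblast markers summed to 10 against 14 counts with 7 of 11 at 0. Luminal epithelial markers summed to 132 against 224 counts, of which KRT18, a keratin also made by many cell lines, held 114 and 174. Endothelial markers summed to 11 against 6 counts, all from FLT1, with 9 of 10 at 0. Adrenal cortex markers were at 0 in 7 of 8, and Schwann cell precursor markers in 6 of 10. Fibroblast markers gave a ratio of 0.18 (0.00 to 0.36), and 0.11 (-0.08 to 0.30) without LUM.

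Among themselves the GATA positive cells were examined by which gene was counted. The 33 cells with both genes had HAND2 at 306 CPM (227 to 403), the 20 cells with GATA2 only at 316 CPM (202 to 470), and the 13 cells with GATA3 only at 224 CPM (112 to 401). TBX2 stood at 489, 381 and 469 CPM in the same order, again with overlapping intervals. FTL was at 4847 CPM (4516 to 5197) in cells with both genes, 6184 CPM (5637 to 6769) with GATA2 only and 6359 CPM (5673 to 7105) with GATA3 only. Each of these lies below the 7316 CPM of GATA negative cells, and the cells with both genes lie lowest, also without the deepest cell at 4851 CPM (4467 to 5260). Without the second deepest cell, FTL in cells with GATA2 only was 6820 CPM (6188 to 7498), an interval that includes 7316 CPM. MSX1 had 19, 7 and 3 counts and CHRNA3 12, 8 and 3 counts in the same order. HIST1H2BK was at 183, 342 and 81.5 CPM, and its level in cells with GATA2 only was 160 CPM without the second deepest cell. These subgroups are small, and no difference between them was tested.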

How the data were processed

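RNA of single SK-N-AS cells was measured by MARS-seq, per the labels. The deposited table holds whole-number counts per row and cell, with no normalization, and no source used here says if they count molecules or reads. The submitters' processing notes name Bowtie2 2.1.0 and the build hg19. The table has 603 cells and 27044 rows. Its header is 1 field short, so cells were taken by position. The row named unknown (2 counts) was left out. Of the cells, 172 had totals under 1500 and 106 others had insulin-row counts. No doublet caller was run.

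Counts were summed over cells. Levels carry exact Poisson intervals, shares Clopper-Pearson intervals and ratios exact conditional binomial intervals, all at 95%. Cells were thinned to 1500 counts without replacement (seed 7). With 1 pool there was no test, and neither edgeR nor DESeq2 was run. Calculations used Python 3.11.15, numpy 2.4.6, scipy 1.17.1, pandas 2.3.3 and matplotlib 3.10.9, and were tested on simulated data.

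The rule named all sympathetic, GATA partner and mesenchymal factors with at least 50 counts, the 15 rows with the highest lower bound and the 15 with the lowest upper bound, and the best counted members (up to 4) of each other list. Further genes were named after their values were seen. Some genes it names are not reported here. A joint row is named by its first symbol. The cells, rule and lists were chosen with earlier results of these data known. The ratios were also computed with 19 other choices of cells, rows and scaling, and with 3 more added after the data were seen.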

Additional observations from a re-analysis of the deposited data

How the results depend on the processing

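Each ratio was recomputed under 22 alternatives, of which 2 bear on numbers of rows only. HAND2 stayed within its counting interval, from -0.14 to 0.55, and the mesenchymal factors ran from -0.23 to 0.06. Over 159 results and all settings, 2722 values stayed within the counting interval of the reported value (for numbers of rows, within 1.5 times), 397 left it, and 63 changed sign where the reported interval was clear of 0. These sign changes are given below as log2 ratios, with the departures of the numbers of rows, TBX2 and the 4 lists most directly compared. Departures of other genes that kept their sign are not all given, such as FTL at -0.75, CSE1L at -3.12 and CDKN1A at -0.036 with groups from thinned counts. Their causes were not tested. Depth limits all of it, since HAND2 and TBX2 have a median of 0 counts per cell at equal depth. Groups from thinned counts also placed 18 of the original GATA positive cells, the deepest included, among the GATA negative cells.

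With groups from thinned counts, 272 of 2769 rows (9.82%) were higher and 439 (15.9%) lower, TBX2 was -0.30, G2/M genes 0.44, interferon and MHC class I genes -0.13, ribosomal protein genes 0.043, LAMA5 -0.076, TMEM141 -0.29, RPS15A -0.45, RPS24 -1.29, QSOX1 -0.59, MALAT1 0.21, PHLDA1 0.030, HLA-C -0.21, COX7C 0.014, TMSB10 0.032 and RPL27 0.17. Without the deepest cell as well, 259 of 2631 rows (9.84%) were higher and 399 (15.2%) lower, TBX2 was -0.28, G2/M genes 0.46, interferon and MHC class I genes -0.097, ribosomal protein genes 0.024, TMEM141 -0.081, RPS15A -0.43, RPS24 -1.32, QSOX1 -0.50, MALAT1 0.23, HLA-C -0.085 and RPL27 0.15.

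With totals of 1500 to 3000, 91 of 1210 rows (7.52%) were higher and 142 (11.7%) lower, TBX2 was -0.44, catecholamine and vesicle genes 0.40, G2/M genes -0.12, interferon and MHC class I genes -0.31, fibroblast markers -0.062, RPS15A -0.019, RPS24 -0.57, HMGB2 -0.064, PDIA4 0.13, HLA-C -0.077, TMSB10 0.023, THY1 -0.14 and RPL27 0.0067. With insulin-row cells kept, 237 of 3390 rows (6.99%) were higher and 151 (4.45%) lower, sympathetic factors were 0.33, catecholamine and vesicle genes 0.66 and THY1 -0.097.

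In barcode set 1, 63 of 1460 rows (4.32%) were higher and 97 (6.64%) lower, matrix genes were 0.019, G2/M genes -0.047, histone genes 0.0055, interferon and MHC class I genes -0.13, S100A4 0.028, HIST1H4C 0.11 and TMSB10 0.18. In set 2, 87 of 1196 rows (7.27%) were higher and 85 (7.11%) lower, G2/M genes were 0.27, stress response genes 0.059, MALAT1 0.22, HSP90B1 0.050 and ACTB 0.10. These 2 settings also test fewer rows and cells.

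The 76 cells with any GATA2 count and no GATA3 gave catecholamine and vesicle genes 0.045, G2/M genes 0.020, fibroblast markers -0.19, STMN3 -0.12, PNKD 0.13, HMGB2 -0.037 and THY1 -0.21. The 52 cells with any GATA3 count and no GATA2 gave sympathetic factors 0.35, catecholamine and vesicle genes 0.019, FHOD1 -0.65, PNKD 0.048, S100A4 0.056, PHLDA1 0.20 and NPY -0.80. Of these 76 and 52 cells, 56 and 39 had a sum of 1. Catecholamine and vesicle genes were 0.11 with a sum of 1 or more and 0.41 with 3 or more, where ACTB was 0.013.

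Without the 5 deepest cells of both groups, G2/M genes were 0.21, histone genes 0.032, interferon and MHC class I genes -0.0014, ribosomal protein genes 0.00087 and HIST1H4C 0.0056. Interferon and MHC class I genes were -0.035 with equal weight per cell, and -0.0086 within runs of 25 columns without the deepest cell, where TMSB10 was 0.0032. Rows with at least 20 counts gave 577 of 5047 higher (11.4%) and 461 lower (9.13%), and rows with at least 200 counts 4 and 10 of 616. No paired analysis was possible because the columns carry no replicate number.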

Other observations

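Cells outside the comparison put the levels in context. The 106 cells with at least 1500 counts and an insulin-row count had GATA2 at 337 CPM (278 to 404) and GATA3 at 249 CPM (199 to 308), against 164 CPM (139 to 191) and 128 CPM (107 to 153) in the 325 cells without that row. CHRNA3 stood at 187 CPM (144 to 239) in them against 32.5 CPM (22.3 to 45.9), and RET at 173 CPM (131 to 223) against 27.5 CPM (18.1 to 40.0). HAND2 was at 325 CPM (267 to 391) against 256 CPM (226 to 290). TBX2 was at 328 CPM (270 to 395) against 438 CPM (398 to 482). Both GATA genes, CHRNA3 and RET were thus higher in cells with the insulin row and TBX2 was lower, while the HAND2 intervals overlap. The median total was 2846 counts in the first and 2475 in the second set of cells.

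The 172 cells with fewer than 1500 counts, which the choice of cells left out, had GATA2 at 160 CPM (111 to 223), GATA3 at 230 CPM (170 to 305), HAND2 at 268 CPM (203 to 347) and TBX2 at 390 CPM (311 to 484). They include cells with and without the insulin row. Without the deepest cell, the upper 15 rows also took in HGF, a growth factor, at 0.98 (0.46 to 1.51), SFRP1, a secreted Wnt antagonist, at 1.23 (0.41 to 2.08), and CCL2, a chemokine, at 1.03 (0.34 to 1.72). Of the original 15 on each side, 9 stayed among the 15.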
